A study of Homo sapiens with 12 samples.

Results

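Genome-wide transcript levels were compared between a doxorubicin-resistant neuroblastoma line, DoxR, and the parental line it was derived from, WT (labelled SK-N-SH, human neuroblastoma cells from bone marrow). The comparison rested on 6 of the 12 bead arrays of the study, 3 of DoxR and 3 of WT, and on 12093 named genes, each represented by 1 probe. DoxR cells had been grown in doxorubicin raised step by step until they survived repeated passages far above the parental inhibitory dose. WT cells received neither doxorubicin nor vorinostat. The remaining arrays measured DoxR-v, a doxorubicin-resistant line also exposed at intervals to vorinostat (the histone deacetylase inhibitor SAHA) during its selection, and WT-v, parental cells given vorinostat alone. They entered the filter and the fit of all 12 arrays, and are used below to place single genes and chromosome runs. DoxR is 1 selected line, so what was due to the drug and what was particular to that line cannot be told apart. Nothing in the labels says that the 3 arrays of a line came from separate cultures, so the p-values measure only the spread between these RNA specimens.

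Doxorubicin is an anthracycline that intercalates into DNA and traps topoisomerase II on cut DNA. Cells kept in it for long can be selected for pumping the drug out, for altered handling of DNA breaks or for a change of cell state. Neuroblastoma arises from the sympathoadrenal lineage of the neural crest, and its cells are known to occur in a neuron-like adrenergic state and in a mesenchymal state rich in matrix and vimentin. Such tumours also often gain or lose whole chromosome arms.

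All 16 tested genes of a list of 18 neuroblastoma lineage markers were detected on every DoxR and every WT array, and their summed log2 level was 174.8 to 175.3 in DoxR and 175.0 to 176.8 in WT. Of 22 markers of other cell types 16 had no tested probe, and the summed level of the other 6 was 35.6 to 36.8 in DoxR and 35.2 to 36.5 in WT. Of those 6, ACTA2, the smooth muscle actin, was higher in DoxR (log2 2.37), CD14 (-1.32) and KRT19 (-1.27) were lower, and ALB, EPCAM and MYOG were not called. Their part in the results was not tested, and in such bulk RNA fewer cells of a type and less RNA per cell cannot be told apart. The oncogene MYCN was at 13.79, 13.69 and 13.77 in DoxR, against 13.85, 13.72 and 13.95 in WT. That probe had rank 28 of the 21609 tested probes by mean level over these 6 arrays. A second MYCN probe had rank 566, with means of 12.57 in DoxR and 12.34 in WT. DDX1, the neighbour of MYCN, averaged 12.27 ± 0.10 in DoxR and 12.23 ± 0.23 in WT (SD, n = 3 each). SK-N-SH, the line named in the labels, is known as a line without MYCN amplification. The study also made resistant cells from SK-N-Be(2)C, a line known to carry that amplification, and the identity of the cells on the arrays was not tested.

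Between 15434 and 17220 probes were detected (detection p-value below 0.01) per DoxR array and between 14969 and 16233 per WT array. A gene was called at an adjusted p below 0.1 in limma together with a fold change above 1.5. On that rule 4005 of 12093 genes (33.1%) differed between DoxR and WT, of which 2073 (17.1%) were higher and 1932 (16.0%) lower in DoxR. By probe, 6415 of 21609 (29.7%) were called. Among called genes, 850 rose and 776 fell by more than 2-fold, 174 rose and 138 fell by more than 4-fold, and 20 rose and 15 fell by more than 16-fold. The 3 DoxR arrays lay wholly above or below the 3 WT arrays for 3868 of the called genes (96.6%). The same held for 6781 of all 12093 genes (56.1%), and the rule for a call itself favours such genes. The balance of rises and falls depended on the scaling. Quantile normalization sets the distributions of all arrays equal, and 51.2% of the called probes were then higher in DoxR. Under median scaling the median over all probes moved to 0.13 and 73.1% of the called probes were higher. The median SD over genes was 0.115 in DoxR and 0.198 in WT. On the second principal component WT replicate 3 scored 26.1, against 46.3 and 50.3 for WT replicates 1 and 2, and 7342 probes were called when it was left out.

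**Figure D1:**
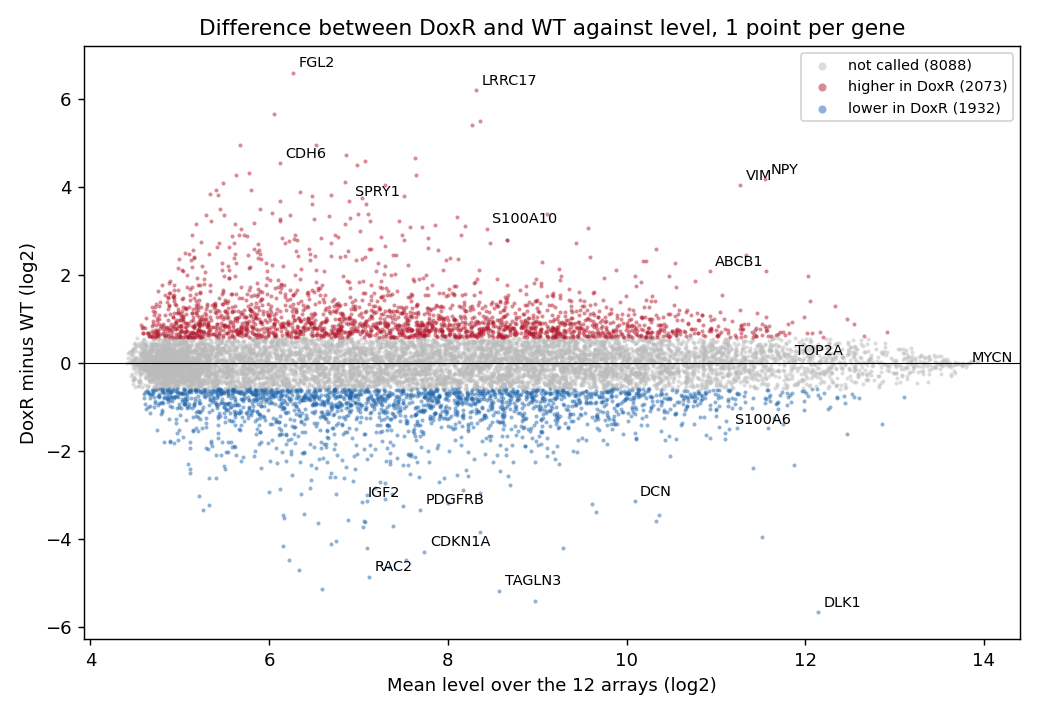
Difference between DoxR and WT (log2, vertical axis) against mean level over the 12 arrays (log2, horizontal axis), with 1 point per gene. Red marks the 2073 genes called higher in DoxR, blue the 1932 called lower and grey the rest. Differences past 4-fold occur at low and high levels, and MYCN and TOP2A lie near 0 at the bright end.

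The largest rises included genes of the matrix, of adhesion and of secreted signals. FGL2, a secreted fibrinogen-like protein, stood at 11.25, 11.08 and 11.03 in DoxR, against 4.52, 4.58 and 4.46 in WT on the log2 scale and rose at least 52.3-fold (limma adjusted p = 9.41e-12). Where no array of the dim line detected the probe, the fold is given as a lower bound. It sets the mean of the bright line against the mean, over the arrays of the dim line, of the higher of the lowest detected signal and the probe's own signal. LRRC17, a secreted leucine-rich repeat protein, was at 12.26, 12.13 and 12.23 in DoxR, against 6.34, 5.75 and 5.91 in WT, a 73.8-fold rise (log2 6.21, SE 0.17, adjusted p = 2.81e-11), and all 3 of its probes were called higher. The spacing of the groups was wide in both, and no DoxR array came near a WT array.

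VIM, which encodes the intermediate filament vimentin, was at 13.09, 13.20 and 12.99 in DoxR, against 8.91, 9.12 and 9.12 in WT (16.5-fold, log2 4.05, SE 0.15, adjusted p = 6.14e-10). GJA1, the gap junction protein connexin 43, was at 8.45, 8.55 and 8.57 in DoxR, against 4.41, 4.47 and 4.43 in WT (at least 8.65-fold, limma adjusted p = 3.67e-11). NPY, a neuropeptide of sympathetic neurons, was at 12.85, 12.83 and 12.92 in DoxR, against 8.35, 9.24 and 8.47 in WT (18.1-fold, log2 4.18, SE 0.20, adjusted p = 5.81e-09). For all 3 the lowest DoxR array was more than 3 log2 units above the highest WT array. ANGPT1, a ligand of the TIE2 receptor, rose 17.5-fold, SOCS2, a suppressor of cytokine signalling, 25.6-fold, and IFI16, a sensor of DNA, at least 15.5-fold. CUX2, a homeobox factor of neurons, rose at least 16.5-fold and CAPN6, a calpain that lacks protease activity, 16.5-fold. GRIN1 and MECOM were also among the 20 largest rises, but only 1 of 3 probes was called for each.

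The largest falls included neuronal, imprinted and cell cycle genes. DLK1, an imprinted membrane protein with EGF-like repeats, was at 7.99, 7.67 and 7.98 in DoxR, against 13.51, 13.50 and 13.62 in WT (50.6-fold lower, log2 -5.66, SE 0.12, adjusted p = 5.84e-12). RAC2, a small GTPase known from blood cells, was at 4.49, 4.71 and 4.76 in DoxR, against 9.73, 9.53 and 9.25 in WT (at least 18.7-fold lower, limma adjusted p = 4.90e-10). Its gene lies on chromosome 22, which is described further on. CDKN1A, the CDK inhibitor p21, was at 6.10, 6.11 and 5.62 in DoxR, against 10.31, 10.04 and 10.34 in WT (19.5-fold lower, log2 -4.28, SE 0.16, adjusted p = 5.37e-10). In these genes each DoxR array was at least 3 log2 units below each WT array.

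FEV, an ETS factor of serotonergic neurons, fell 18.3-fold and OPRL1, the nociceptin receptor, 14.3-fold. ST6GAL1, which adds sialic acid to glycans, fell at least 9.41-fold. NDN, an imprinted growth suppressor of the MAGE family, fell at least 7.53-fold, FNDC5, the precursor of irisin, at least 10.2-fold, and IGDCC3, an immunoglobulin superfamily member, at least 16.7-fold. The plot of levels on each array shows that none of the 40 genes had overlapping groups, which was required by the rule that chose them.

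**Figure D2:**
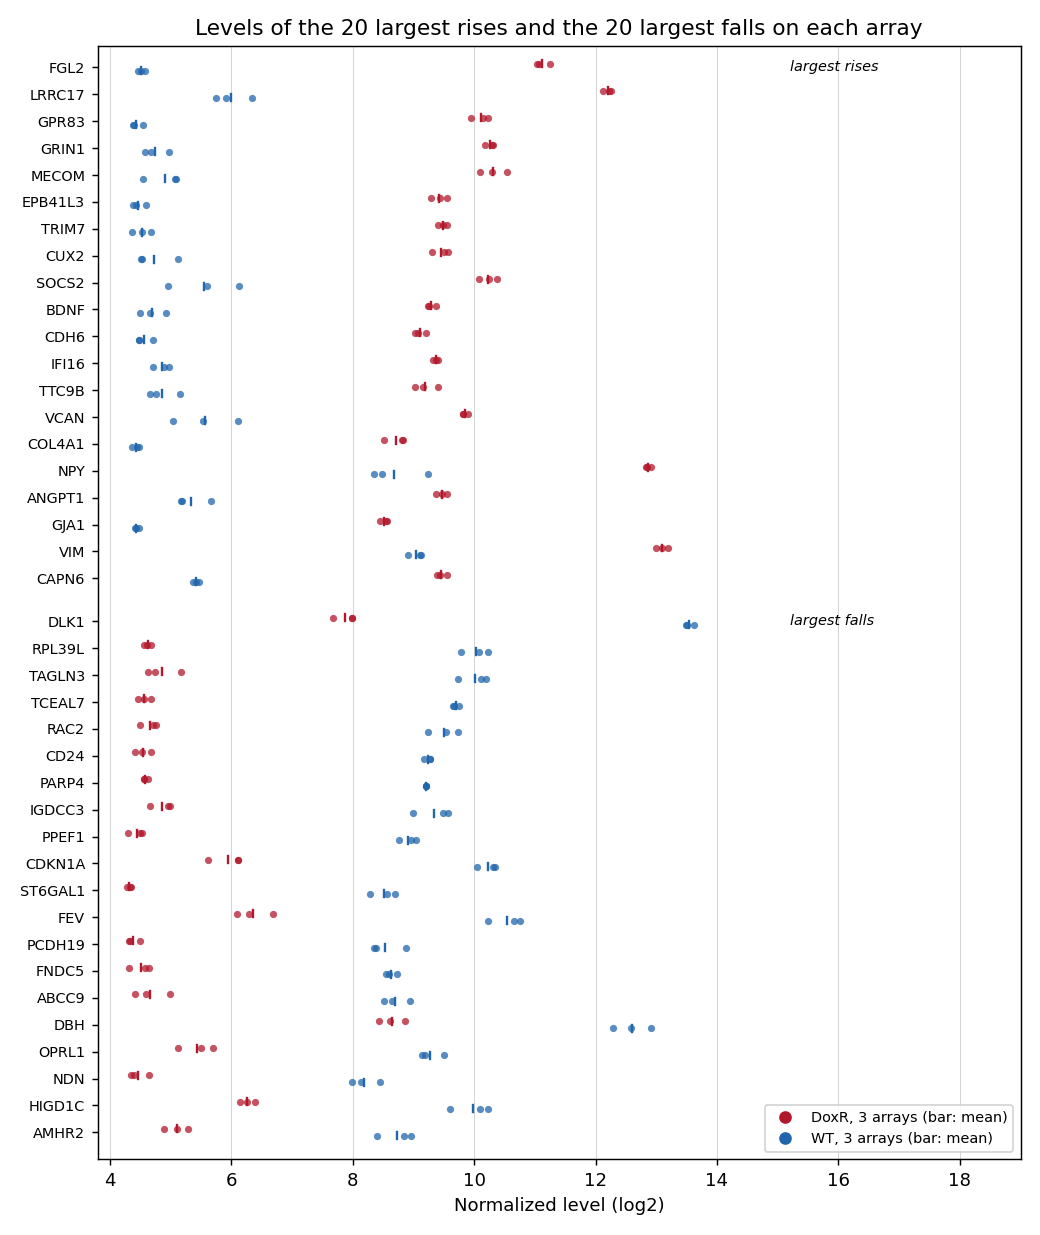
Normalized level (log2, horizontal axis) of the 20 largest rises and the 20 largest falls on each of the 3 DoxR (red) and 3 WT (blue) arrays, with the group mean as a bar. For FGL2 the DoxR arrays lie above 11 and the WT arrays below 4.6, and for DLK1 the DoxR arrays lie below 8 and the WT arrays above 13.4.

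For 338 genes the representative probe was detected on all 3 DoxR arrays and on no WT array, and 314 of them were called. The reverse held for 163 genes, of which 160 were called. These genes had to differ in part through the way they were picked. Of the 338, 97 were also undetected on all arrays of both DoxR-v and WT-v, and of the 163, 22 were undetected there. Promoter sequence, taken from RefSeq for GRCh38.p14 as the 250 bases before the annotated start, was found for 262 of the 338 genes and 127 of the 163. It is described here because the number of CG dinucleotides, the site of DNA methylation, varies widely among promoters. The median number of CG in the window was 22 for genes detected only in DoxR and 18 for genes detected only in WT, against 21 over the 9680 tested genes with a sequence. Fewer than 5 CG were found in 13% of the promoters of genes detected only in DoxR and in 16.5% of those detected only in WT, against 8.34% over all tested genes. Methylation was not measured.

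The promoters shown belong to the 2 largest rises detected only in DoxR and the 2 largest falls detected only in WT that had a sequence. Size was ranked by the fitted log2 difference, not by the lower bound of the fold. Each CG is in capitals, and all sequences are written 5′ to 3′ on the gene's strand. FGL2 (chr7:77199820-77200069, minus strand) holds 5 CG and GPR83, a G protein-coupled receptor that rose at least 26.0-fold (chr11:94401420-94401669, minus strand), holds 22. TAGLN3, a neuronal calponin family member that fell at least 26.7-fold (chr3:111998672-111998921, plus strand), holds 7. CD24, a surface glycoprotein that fell at least 15.6-fold (chr6:106975628-106975877, minus strand), holds 20. CD24 has closely related pseudogene copies, so its probes may not be specific.
FGL2: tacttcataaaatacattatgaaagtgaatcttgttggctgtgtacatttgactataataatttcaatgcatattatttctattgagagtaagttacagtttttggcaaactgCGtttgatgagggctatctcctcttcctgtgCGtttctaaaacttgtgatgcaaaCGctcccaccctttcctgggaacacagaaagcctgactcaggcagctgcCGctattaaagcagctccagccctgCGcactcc
GPR83: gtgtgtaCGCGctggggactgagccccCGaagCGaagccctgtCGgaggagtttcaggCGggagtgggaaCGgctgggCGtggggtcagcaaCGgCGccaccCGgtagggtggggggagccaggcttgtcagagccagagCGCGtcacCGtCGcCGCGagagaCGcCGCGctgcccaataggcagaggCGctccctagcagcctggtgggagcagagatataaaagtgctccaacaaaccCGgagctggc
TAGLN3: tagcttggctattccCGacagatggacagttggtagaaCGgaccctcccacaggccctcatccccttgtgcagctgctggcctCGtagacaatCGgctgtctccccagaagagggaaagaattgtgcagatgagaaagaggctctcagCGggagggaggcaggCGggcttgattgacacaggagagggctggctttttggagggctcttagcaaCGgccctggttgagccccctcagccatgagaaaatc
CD24: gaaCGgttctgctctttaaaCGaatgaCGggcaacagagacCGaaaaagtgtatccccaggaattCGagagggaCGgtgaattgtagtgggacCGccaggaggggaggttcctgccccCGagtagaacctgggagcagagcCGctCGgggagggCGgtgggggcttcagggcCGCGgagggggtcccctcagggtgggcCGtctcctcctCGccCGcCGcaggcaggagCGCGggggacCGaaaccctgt
In each pair 1 window lies well below the median of 21 CG over all tested genes and the other lies close to it.

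The share of called genes varied widely among gene lists. Over all 12093 genes the share was 33.1% and the median log2 difference 0.01. Of 47 tested axon guidance ligands and receptors 33 (70.2%) were called, 21 higher and 12 lower (median 0.16). Of 35 collagens and matrix glycoproteins 22 (62.9%) were called, 14 higher and 8 lower (median 0.13). Of 17 members of the insulin-like growth factor system 12 (70.6%) were called, 6 in each direction (median -0.42). The S100 and annexin list followed with 61.5%. At the other end, 4 of 72 cytosolic ribosomal protein genes (5.56%) and 12 of 75 respiratory chain subunits (16.0%) were called. These are descriptions of lists chosen with earlier results of these data known.

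**Figure D3:**
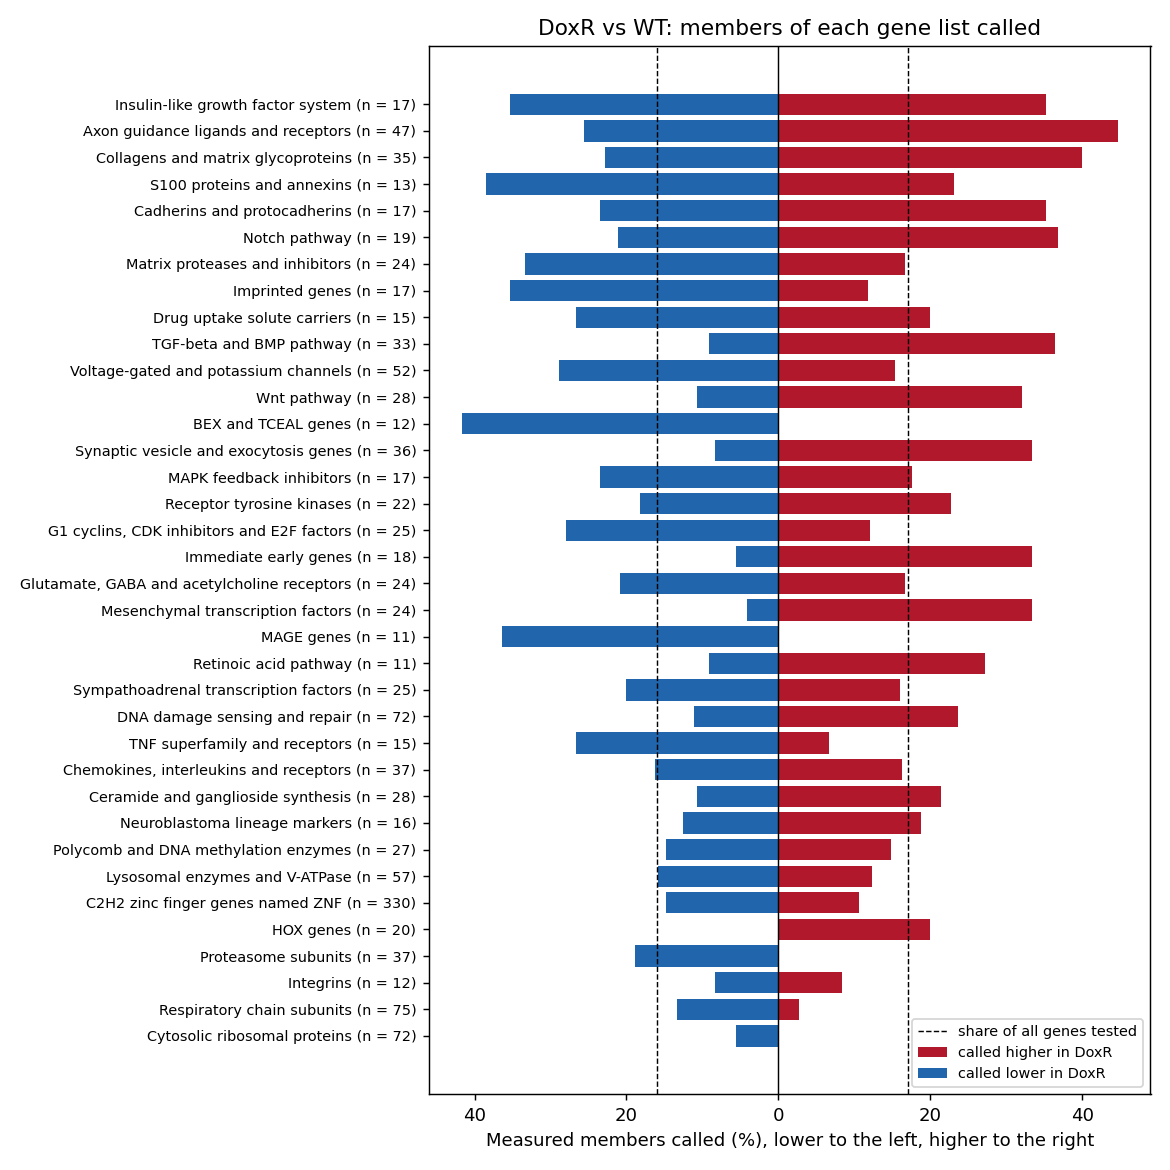
Share of the tested members of each gene list that were called higher (red, to the right) or lower (blue, to the left) in DoxR, in percent. Dashed lines mark the shares over all genes, 17.1% higher and 16.0% lower. Lists with at least 10 tested members are shown, other than housekeeping genes, in the order of the share called.

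The matrix list moved in both directions. COL4A1, a chain of basement membrane collagen, was at 8.81, 8.83 and 8.51 in DoxR, against 4.45, 4.47 and 4.37 in WT (at least 9.87-fold higher, limma adjusted p = 1.31e-10). VCAN, the large proteoglycan versican, was at 9.89, 9.82 and 9.82 in DoxR, against 6.11, 5.05 and 5.53 in WT (19.5-fold higher, log2 4.28, SE 0.28, adjusted p = 9.30e-08). COL3A1, a fibrillar collagen, rose at least 3.79-fold, COL4A2, the partner chain of COL4A1, at least 2.08-fold and MATN2, a matrilin, 3.68-fold. DCN, the small leucine-rich proteoglycan decorin, was at 7.25, 7.14 and 7.0 in DoxR, against 10.66, 10.18 and 9.96 in WT (8.80-fold lower, log2 -3.14, SE 0.19, adjusted p = 4.98e-08). Its relative LUM, lumican, fell 3.97-fold, and LAMA4, a laminin chain of vessel basement membranes, fell at least 4.49-fold. All 3 probes of DCN were called lower. Of 24 matrix proteases and inhibitors 4 rose and 8 fell (50% called), although 4 rose and 2 fell without background correction and 3 rose and 1 fell in the authors' normalized values. The rises were MMP28, MMP16, ADAMTS5 and the protease inhibitor SERPINE2 (5.41-fold, log2 2.43, SE 0.21, adjusted p = 1.40e-06).

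Cadherins likewise moved in both directions. CDH6, a cadherin of the kidney and of migrating neural crest, was at 9.20, 9.08 and 9.03 in DoxR, against 4.48, 4.49 and 4.70 in WT (at least 12.9-fold higher, limma adjusted p = 1.05e-09). PCDH7, a protocadherin, rose at least 3.58-fold. PCDH19, a protocadherin of developing neurons, was at 4.31, 4.32 and 4.49 in DoxR, against 8.34, 8.38 and 8.88 in WT (at least 9.55-fold lower, limma adjusted p = 1.13e-09). CDH2, the neural N-cadherin, fell by 0.72 on the log2 scale. In all 6 of 17 tested members rose and 4 fell (58.8% called, against 33.1% of all genes). Of 12 tested integrins 2 (16.7%) were called, ITGAV higher and ITGA9 lower.

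The guidance list held ligands and receptors on both sides. NTNG1, a membrane-bound netrin, was at 8.43, 8.39 and 8.47 in DoxR, against 5.01, 4.72 and 5.84 in WT (9.44-fold higher, log2 3.24, SE 0.24, adjusted p = 3.14e-07), with WT replicate 3 the highest WT array. The semaphorin co-receptor NRP1 was at 10.55, 10.33 and 10.34 in DoxR, against 7.95, 8.30 and 9.0 in WT (3.97-fold higher, log2 1.99, SE 0.21, adjusted p = 7.61e-06), again with WT replicate 3 nearest to DoxR. The repellent SLIT3 rose 3.21-fold and the semaphorin receptor PLXNA4 2.94-fold. The netrin receptor UNC5A was at 8.19, 8.14 and 7.96 in DoxR, against 9.86, 9.84 and 9.90 in WT (3.40-fold lower, log2 -1.77, SE 0.19, adjusted p = 1.19e-05). SEMA6A, a membrane semaphorin, fell 2.21-fold, the plexin PLXNB2 2.12-fold and the ephrin EFNB2 1.85-fold. Without background correction 6 members rose and 5 fell, and in the authors' normalized values 4 did in each direction.

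In the insulin-like growth factor system the binding proteins divided. IGFBP3, the main carrier of these factors in serum, was at 8.74, 8.86 and 8.80 in DoxR, against 4.62, 5.20 and 5.16 in WT (at least 10.5-fold higher, limma adjusted p = 7.06e-09). IGFBP5 was at 11.85, 11.69 and 11.55 in DoxR, against 9.66, 9.02 and 9.57 in WT (4.85-fold higher, log2 2.28, SE 0.20, adjusted p = 1.31e-06), and IGFBP2 rose 2.09-fold. IGFBP7 was at 7.49, 7.11 and 7.32 in DoxR, against 10.18, 10.41 and 10.17 in WT (7.70-fold lower, log2 -2.95, SE 0.18, adjusted p = 3.66e-08), and IGFBP4 fell 3.36-fold. Each of these 5 genes kept its 3 DoxR arrays apart from its 3 WT arrays. The imprinted ligand IGF2 was at 4.98, 5.00 and 4.74 in DoxR, against 8.02, 8.0 and 8.17 in WT and was undetected in DoxR (at least 6.89-fold lower, limma adjusted p = 8.45e-08). IGF2R, the receptor that clears IGF2, fell 2.22-fold.

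Genes of the Wnt, Notch and TGF-beta pathways held more rises than falls. Of 28 tested Wnt genes 9 rose and 3 fell (42.9% called, median 0.20). Of 19 Notch genes 7 rose and 4 fell (57.9%, median 0.29), and of 33 TGF-beta and BMP genes 12 rose and 3 fell (45.5%, median 0.22). Over all genes 17.1% rose and 16.0% fell. In the authors' normalized values the rises and falls were 4 and 2 for Wnt, 2 and 1 for Notch, and 3 and 1 for TGF-beta and BMP. Without background correction they were 5 and 3, 2 and 1, and 11 and 2. LEF1, the nuclear partner of beta-catenin, was at 9.02, 9.09 and 8.89 in DoxR, against 5.62, 5.13 and 6.35 in WT (9.87-fold higher, log2 3.30, SE 0.23, adjusted p = 1.81e-07). DKK1, a secreted Wnt inhibitor, was at 10.92, 11.02 and 10.95 in DoxR, against 8.41, 7.54 and 7.75 in WT (8.38-fold higher, log2 3.07, SE 0.20, adjusted p = 9.30e-08). The R-spondin receptor LGR5 rose 4.31-fold and the inhibitor SFRP1 2.56-fold, while GSK3B, a kinase of the beta-catenin destruction complex, fell 2.25-fold and DKK3 2.20-fold. Wnt inhibitors were thus found among the rises and among the falls.

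JAG2, a Notch ligand, was at 7.90, 8.01 and 7.88 in DoxR, against 6.78, 5.21 and 6.08 in WT (3.76-fold higher, log2 1.91, SE 0.31, adjusted p = 2.59e-04), and the target HEY1 rose 2.87-fold. The fall of DLK1, an atypical Notch ligand, belongs to the same list. BAMBI, a decoy receptor that dampens TGF-beta signals, was at 12.67, 12.75 and 12.65 in DoxR, against 10.59, 10.66 and 10.53 in WT (4.28-fold higher, log2 2.10, SE 0.13, adjusted p = 3.96e-08). The ligand TGFB3 rose 3.68-fold and FSTL1, a secreted binder of these ligands, at least 5.08-fold. BAMBI was bright in both lines and its arrays agreed within 0.2 log2 units in each.

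Of 17 tested feedback inhibitors of the MAPK pathway 3 rose and 4 fell (41.2% called, against 33.1% of all genes). The list also had 3 rises without background correction, under median scaling and in the authors' normalized values. The falls numbered 2, 2 and 1 in these 3 settings. SPRY1, a Sprouty inhibitor of receptor tyrosine kinase signalling, was at 9.42, 9.5 and 9.46 in DoxR, against 5.90, 5.48 and 5.94 in WT (12.8-fold higher, log2 3.68, SE 0.19, adjusted p = 1.18e-08). DUSP6, a phosphatase of ERK, was at 9.03, 9.14 and 9.22 in DoxR, against 6.16, 5.68 and 6.28 in WT (8.53-fold higher, log2 3.09, SE 0.15, adjusted p = 6.86e-09). SPRY4 rose 2.73-fold. DUSP3, which lies in a downward run of chromosome 17 described further on, fell 2.15-fold. DUSP4 and DUSP8 were called lower, but in none of those 3 settings. The receptor tyrosine kinase RET rose 3.39-fold (log2 1.76, SE 0.17, adjusted p = 4.66e-06), with 11.39, 11.40 and 11.28 in DoxR, against 9.32, 9.64 and 9.82 in WT. PDGFRB, the receptor of platelet-derived growth factor, was at 5.39, 5.36 and 6.11 in DoxR, against 9.18, 8.78 and 8.89 in WT (10.1-fold lower, log2 -3.33, SE 0.20, adjusted p = 4.01e-08). DUSP1 was called lower at adjusted p = 0.0628, but 1 DoxR array overlapped the WT arrays and the call ended when either of the other DoxR arrays, or any WT array, was left out.

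Calcium-binding proteins of the S100 family also went both ways. S100A10, the annexin A2 partner, was at 10.92, 10.96 and 11.03 in DoxR, against 7.74, 8.32 and 7.68 in WT (8.33-fold higher, log2 3.06, SE 0.18, adjusted p = 3.97e-08). S100A11 rose 4.38-fold. S100A6 was at 10.35, 10.69 and 10.71 in DoxR, against 11.97, 12.32 and 11.95 in WT (2.82-fold lower, log2 -1.50, SE 0.17, adjusted p = 1.44e-05), and the calcium-dependent lipid binders ANXA5 and ANXA6 fell. Of the 13 tested S100 and annexin genes 3 rose and 5 fell.

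**Figure D4:**
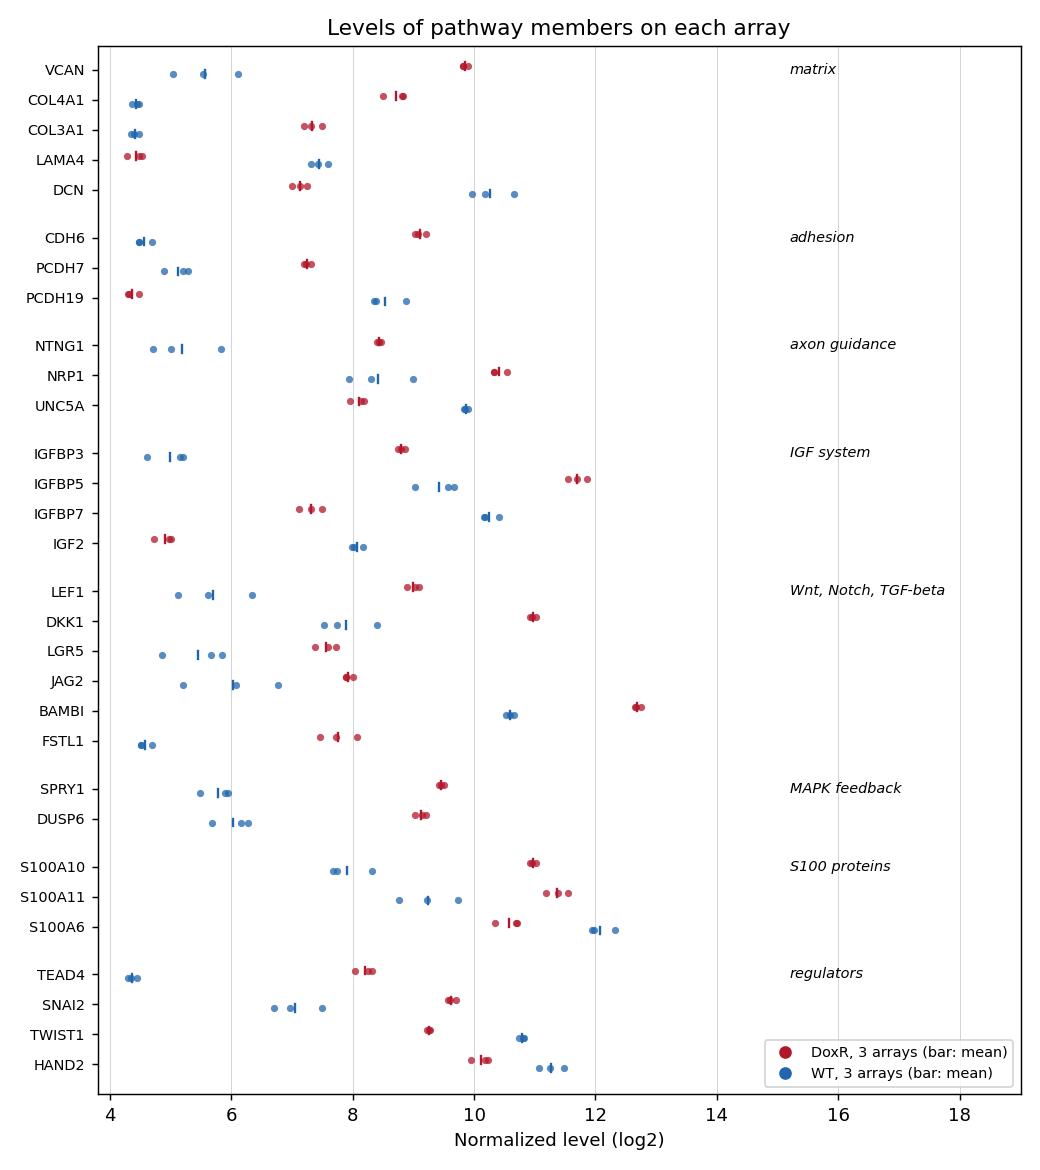
Normalized level (log2, horizontal axis) of 30 members of the pathways described, on each of the 3 DoxR (red) and 3 WT (blue) arrays, with the group mean as a bar. Within the matrix, IGF and S100 groups some members lie higher in DoxR and others lower, as COL4A1 against DCN, IGFBP3 against IGFBP7 and S100A10 against S100A6.

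Among regulators, 8 of 24 tested mesenchymal transcription factors rose and 1 fell (37.5% called, against 33.1% of all genes, median 0.14), and 3 rose and 1 fell in the authors' normalized values. TEAD4, a partner of the YAP coactivator, was at 8.04, 8.33 and 8.26 in DoxR, against 4.45, 4.35 and 4.30 in WT (at least 6.96-fold higher, limma adjusted p = 1.31e-10), although only 1 of its 2 probes was called. SNAI2, the neural crest repressor Slug, was at 9.61, 9.57 and 9.70 in DoxR, against 6.96, 6.70 and 7.50 in WT (5.95-fold higher, log2 2.57, SE 0.17, adjusted p = 9.56e-08). TWIST1, another factor of this list, was at 9.28, 9.26 and 9.22 in DoxR, against 10.74, 10.80 and 10.82 in WT (2.90-fold lower, log2 -1.53, SE 0.11, adjusted p = 2.26e-07). Of 25 tested sympathoadrenal factors 4 rose and 5 fell (36% called), and under median scaling 7 rose and 5 fell. The rises included TFAP2B (1.07) and PHOX2A (0.78) and the falls HAND2 (-1.15) and KLF13 (-1.57). Of 20 tested HOX genes 4 (20%) rose, against 17.1% of all genes, among them HOXD8, HOXD9 and HOXD10. Limma called 0 HOX genes lower, with 2 at an unadjusted p below 0.05. Without background correction 1 of the list was called higher, and none of the 4 rises was called in the authors' normalized values. CRABP2, the carrier of retinoic acid, was at 10.39, 10.36 and 10.32 in DoxR, against 7.99, 7.51 and 7.15 in WT (7.0-fold higher, log2 2.81, SE 0.31, adjusted p = 1.17e-05).

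Excitability genes changed in many single members. Of 52 tested voltage-gated and potassium channel genes 8 rose and 15 fell (44.2% called, median -0.19). The excess of falls was smaller under median scaling (8 and 10) and without background correction (6 and 8), and the authors' normalized values gave 4 in each direction. KCNG1, a modifier subunit of potassium channels, rose at least 9.59-fold. The background potassium channel KCNK3 was at 6.32, 6.59 and 6.28 in DoxR, against 8.54, 8.33 and 8.17 in WT (3.86-fold lower, log2 -1.95, SE 0.15, adjusted p = 5.66e-07), and KCNJ8 and KCNT1 fell 3.29-fold and 3.34-fold. GABRB1, a subunit of GABA receptors, was at 4.55, 4.63 and 5.11 in DoxR, against 8.27, 8.13 and 8.15 in WT and was undetected in DoxR (at least 7.48-fold lower, limma adjusted p = 2.84e-09). CHRM3, a muscarinic acetylcholine receptor, rose 7.37-fold and the nicotinic subunit CHRNA3 fell 2.09-fold. Of 36 synaptic vesicle and exocytosis genes 12 rose and 3 fell (41.7% called, against 33.1% of all genes). The rises were led by RAB27B, a GTPase of vesicle docking (8.82-fold higher, log2 3.14, SE 0.17, limma adjusted p = 1.42e-08). Without background correction 5 rose and 3 fell, and in the authors' normalized values 3 rose and 1 fell.

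The topoisomerases that doxorubicin targets differed little. TOP2A was at 11.59, 11.55 and 11.39 in DoxR, against 11.22, 11.49 and 11.64 in WT and was not called (log2 0.06, SE 0.13, adjusted p = 0.772). TOP2B was called higher at 1.51-fold (log2 0.60, SE 0.14, adjusted p = 0.00486), just above the fold threshold, and the call ended when DoxR replicate 1, WT replicate 1 or WT replicate 2 was left out (log2 0.51 to 0.54), without background correction and in the authors' normalized values. For comparison the efflux pump gene ABCB1 was at 12.25, 12.14 and 12.05 in DoxR, against 9.90, 9.89 and 10.38 in WT (log2 2.09, SE 0.15, adjusted p = 2.66e-07). Of 72 genes of DNA damage sensing and repair 17 rose and 8 fell (34.7% called, against 33.1% of all genes, median 0.18), and under median scaling 24 rose and 4 fell. NBN, part of the complex that senses double-strand breaks, rose 3.39-fold (log2 1.76, SE 0.21, adjusted p = 2.67e-05), the kinase ATM 2.14-fold (log2 1.10, SE 0.13, adjusted p = 2.95e-05) and the excision repair genes ERCC5 2.51-fold and XPC 2.10-fold. XRCC6, the end-joining protein Ku70, fell 2.01-fold (log2 -1.01, SE 0.16, adjusted p = 2.20e-04). Of 25 genes of the G1 phase 3 rose and 7 fell (40% called). The falls included CDKN1A, CCNE1 (2.46-fold), CCND3 (2.38-fold) and CCND1 (1.72-fold). All of these but CDKN1A are cyclins that drive entry into S phase. Under median scaling that list stood at 5 rises and 5 falls. No gene-level result was obtained here for ABCC1, ABCG2 or SLC22A16, for which no tested probe carried the name. ALK (0.23), RB1 (0.37) and the vault protein MVP (-0.21) were not called, although RB1 passed under median scaling and without WT replicate 3 (both 0.69).

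Ribosomal, proteasome and respiratory chain lists had shares of called genes below the 33.1% of all genes. Limma called 0 of 72 cytosolic ribosomal protein genes higher, with 4 at an unadjusted p below 0.05, and 4 lower. These were the testis-expressed paralogue RPL39L (at least 26.9-fold), RPS7 (3.26-fold), RPL34 (1.91-fold) and RPL13 (1.67-fold). Limma called 0 of 37 proteasome subunits higher, with 1 at an unadjusted p below 0.05, and 7 lower, led by PSMD3 (2.36-fold) and PSMB3 (1.87-fold). Of the respiratory chain subunits 2 rose and 10 fell, led by ATP5MC1 (2.59-fold) and UQCR10 (2.59-fold). Several of these genes lie in the chromosome stretches described next, namely 3 of the 7 proteasome falls and 4 of the 10 respiratory falls. Median scaling changed the ribosomal count to 4 higher and 4 lower and the respiratory count to 5 higher and 7 lower. Ribosomal protein genes have many near-identical pseudogene copies, so their probes may not be specific.

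Differences between DoxR and WT were uneven along the genome. Chromosome 22 had the largest share of lower genes. Of its 299 tested genes 154 (51.5%) were lower in DoxR and 1 (0.334%) was higher, against 16.0% and 17.2% over all 12073 genes with a chromosome. Over its 166 genes with a mean level above 7, the median difference was -0.69. By array, the median of these genes relative to the WT mean was -0.67, -0.70 and -0.76 in DoxR and 0.00, 0.01 and -0.02 in WT. The median against DoxR-v was -0.70. Among named genes on this chromosome were RAC2, XRCC6, UQCR10, PLXNB2, the ceramide kinase CERK (3.04-fold lower), the Polycomb protein CBX6 (2.59-fold lower) and the proton pump subunit ATP6V1E1 (3.31-fold lower).

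Chromosomes with many rises were 8 (32.8% higher, 11.8% lower), 18 (28.9% and 3.77%), 1 (28.0% and 7.07%), 5 (27.4% and 9.80%) and 10 (25.7% and 7.34%). Those with many falls after 22 were 6 (25.7% lower, 8.19% higher), X (25.7% and 12.3%), 17 (23.9% and 10.7%) and 4 (23.2% and 16.4%). Under median scaling the medians of 17 and X were 0.10 and -0.07, both below the 0.13 of all probes. A median taken over 21 neighbouring genes with a mean level above 7, in RefSeq order, passed 0.4 log2 units in either direction in 51 runs of at least 5 genes. Upward and downward runs together held 1361 of the 6892 ordered genes (19.7%), so that this share is not one of either direction alone. Because the runs were picked on the differences themselves, they are described with no test. Of the called genes, 467 of 2073 rises (22.5%) lay in an upward run and 523 of 1932 falls (27.1%) in a downward run. Against the direction of their run lay 57 rises and 55 falls. Most calls therefore lay outside any run. The share of all tested genes in upward or in downward runs was not computed, so the 22.5% and 27.1% have no background beside them. The 19.7% covers only genes with a mean level above 7, whereas called genes of any level were placed.

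A total of 8 runs held 40 genes or more. On chromosome 17 the run from PIGW to MMD held 114 genes, of which 67 were lower and 2 higher (median -0.73), while the other 285 genes of that chromosome had a median of 0.05. On chromosome 8 the run from ZNF704 to SLC52A2 held 110 genes, 70 higher and 1 lower (median 0.70), against -0.06 for the rest of the chromosome. On chromosome 7 the run from TBL2 to CASD1 held 45 genes, 28 higher and 2 lower (median 0.74), and spans ABCB1. In each of these 3 runs the 3 DoxR arrays gave nearly the same shift. It was -0.77, -0.74 and -0.78 on chromosome 17, 0.71, 0.72 and 0.70 on chromosome 8, and 0.81, 0.80 and 0.76 on chromosome 7. All run values by array are medians relative to the WT mean. The WT arrays, between -0.04 and 0.10 here, therefore lie near 0 by definition. Besides its upward run, chromosome 7 held shorter downward runs. The largest were ELMO1 to ADCY1 (20 of 32 genes lower, median -0.81) and MRM2 to DAGLB (16 of 24 lower, -0.75).

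The remaining long runs were ATPSCKMT to SETD9 on chromosome 5 (28 of 49 genes higher, median 0.66) and CREG1 to KDM5B on chromosome 1 (29 of 59 higher, 0.57), together with the downward runs PPP3CA-DT to ZNF827 on chromosome 4 (23 of 50 lower, -0.56) and RBM10 to PJA1 on chromosome X (22 of 45 lower, -0.58), besides C22orf39 to SELENOO on chromosome 22. Under median scaling, with the median of all probes at 0.13, the medians of the chromosome 4 and X runs were -0.35 and -0.29. The DoxR-v arrays differed among runs. They lay at -0.04, 0.04 and -0.14 in the chromosome 22 run and at 0.12, 0.15 and 0.16 in the chromosome 17 run, near WT or on the other side of it. They lay at 0.39, 0.35 and 0.38 in the upward chromosome 7 run and at -0.49, -0.63 and -0.54 in the chromosome 4 run. In both they were on the same side of WT as DoxR. In the X chromosome run RBM10 to PJA1 the DoxR-v arrays lay at -0.62, -0.69 and -0.63 and the WT-v arrays at -0.83, -0.79 and -0.79. Both thus lay below WT there, as DoxR did. DNA copy number was not measured.

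**Figure D5:**
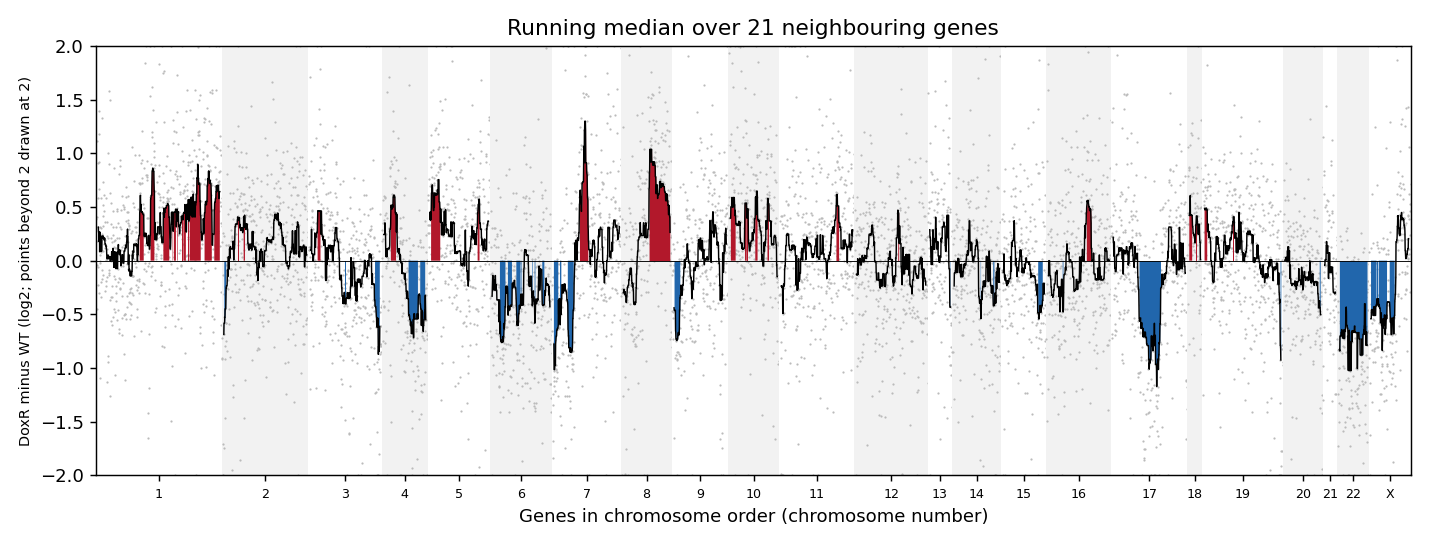
Difference between DoxR and WT (log2, vertical axis) for 6892 genes in chromosome order (horizontal axis). Grey points are genes, the black line is the median over 21 neighbours, and red and blue fill mark where it passes 0.4 upward or downward. Chromosome 22 lies below 0 along its length, and chromosomes 8 and 17 each carry a long run beside stretches near 0. Chromosome 7 carries a long upward run and shorter downward runs.

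Members of some gene families lay near each other in these runs. A gene was placed in a run by its position, whatever its own result, and the runs were picked on these same differences. All 5 called members of the BEX and TCEAL family, small X-linked proteins of neurons, fell, out of 12 tested, and all 5 lay in the downward run PGK1 to PRPS1 on the X chromosome. Limma called 0 of the 12 higher, also at an unadjusted p below 0.05. Of all tested genes on the X chromosome 25.7% were lower. TCEAL7 fell at least 21.4-fold and BEX4 3.66-fold. Both are larger than the median of that run, -0.57. TCEAL2 lost its call without background correction and in the authors' normalized values. Of 11 tested MAGE genes 4 (36.4%) fell, against 16.0% of all genes, and 0 rose, with 0 rising at an unadjusted p below 0.05. Of the 4, 2, MAGEH1 and MAGED1, lay in the X chromosome run RBM10 to PJA1. The other 2, MAGEL2 and MAGEE1, lost the call without background correction, under median scaling and in the authors' normalized values. On chromosome 5, CDH6, CDH10 and CDH18 rose within the upward run, and CDH6 rose far more than its median of 0.66. Among the largest differences, FGL2 and ANGPT1 rose inside the upward runs of chromosomes 7 and 8, and GPR83 inside one of chromosome 11. ST6GAL1 and RPL39L fell inside a downward run of chromosome 3. Genes also moved against their surroundings. LEF1 and SPRY1 rose 9.87-fold and 12.8-fold inside the downward run of chromosome 4, and GABRB1 fell inside an upward run of that chromosome.

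Setting DoxR against DoxR-v, where 28.2% of genes were called, showed which of the large differences the other resistant line also had. DUSP6 was at 9.03, 9.12 and 9.14 in DoxR-v, and its difference from DoxR was 0.03 (adjusted p = 0.895). NPY was at 13.53, 13.41 and 13.49 in DoxR-v, -0.61 for DoxR minus DoxR-v (limma adjusted p = 0.0326), which passes the rule for a call. GABRB1 was at 4.40, 4.49 and 4.32 in DoxR-v and LAMA4 at 4.39, 4.39 and 4.47, where neither was called against DoxR. For these 4 genes the DoxR-v arrays lay nearer to DoxR than to WT. LAMA4 was also undetected on all 3 WT-v arrays, at 4.66, 4.60 and 4.36.

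Others separated DoxR from both lines. DLK1 was at 13.79, 13.72 and 13.69 in DoxR-v, -5.85 for DoxR minus DoxR-v (adjusted p = 2.52e-12). GJA1 was at 4.56, 4.50 and 4.35 (4.05), COL4A1 at 4.49, 4.87 and 4.71 (4.03) and TEAD4 at 4.52, 4.46 and 4.30 (3.78), undetected on every DoxR-v array as on every WT array. SPRY1 was at 5.32, 4.84 and 4.47 (4.58), LEF1 at 4.38, 4.66 and 4.33 (4.54) and S100A10 at 7.42, 7.39 and 7.57 (3.51). DCN was at 12.00, 11.38 and 11.57 in DoxR-v and LUM at 12.06, 11.53 and 11.48, and for both proteoglycans every DoxR array lay below, and every DoxR-v array above, the 3 WT arrays. The comparisons share the DoxR arrays and are given gene by gene for that reason.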

How the data were processed

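Cells were profiled on Illumina HumanHT-12 v4 arrays. The authors deposited non-normalized probe intensity values and, beside each, a detection p-value against the negative controls of the array. The submitters' processing notes name lumi 2.13.3 and R 3.0.1 for the normalized intensity values that the authors also deposited, used here only as an alternative. The genome build is not given in the sources used here. Intensities were background corrected with neqc (offset 16), quantile normalized and log2 transformed with limma 3.58.1 under R 4.3.3. Of all probes, 21609 passed the filter of a detection p-value under 0.01 on any of the 12 arrays and were tested. The limma model held a mean for every group and used all 12 arrays, with eBayes, and p-values were adjusted by Benjamini and Hochberg over all probes. Calls needed an adjusted p below 0.1 and a fold above 1.5, the study's thresholds. Each gene took its tested probe with the highest mean. In data simulated for DoxR vs WT over 21609 probes, 200 were changed, 100 by 2-fold and 100 by 4-fold. Of the 2-fold changes 71% were recovered and of the 4-fold changes 100%, with 15 false calls. The noise was drawn on normalized values, so normalization was not part of this check. Far fewer probes were changed than the 6415 called in DoxR vs WT, so these shares need not hold for that comparison. Genes named were the 20 largest rises and falls with non-overlapping groups, up to 5 called members per list and direction by adjusted p, and a fixed set of genes, some of which are not reported here. Genes and lists were chosen with earlier results of these data known, and the promoters shown, the runs along chromosomes, DDX1 and the genes of the closing section after their values were seen. A total of 3330 genes had more than 1 tested probe. Gene names and order came from RefSeq (GRCh38.p14).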

Additional observations from a re-analysis of the deposited data

How the results depend on the processing

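The count of probes called in DoxR vs WT was 6415. It was 2431 with the stricter rule of adjusted p under 0.01 and fold over 2, 3295 without background correction and 2072 in the authors' normalized values. It ranged from 6167 to 7342 when 1 array was left out. In DoxR vs DoxR-v the count of 5383 was 2029, 2874 and 1838 under the same 3 settings, and 5341 to 5488 when 1 array was left out. The share of called probes that were higher in DoxR was 51.2%, and 73.1% under median scaling. Other settings kept these counts within 1.5 times and the share within 10 points. Replicate numbers did not pair the samples (correlations of deviations -0.04, -0.02 and -0.13), and with the replicate number as a block 6411 probes were called in DoxR vs WT and 5375 in DoxR vs DoxR-v.

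Of 299 genes called under the naming rule none changed direction under the settings tried. The call was lost for 122 in the authors' values, 69 without background correction, 29 under median scaling, 13 when probes of a gene were averaged, and at most 10 when 1 array was left out. Among genes named in the text, ADAMTS5, ANXA6, COL4A2, ITGAV, HOXD8, HOXD9, HOXD10, ITGA9 and CDH18 lost it in the authors' values. So did CD14, KRT19, DUSP1, DUSP4, DUSP8, MAGEL2, MAGEE1, TCEAL2 and TOP2B. Medians of chromosomes 1, 5, 8, 17, 18, 22 and X and of the 8 long runs were computed under every setting but the mean of a gene's probes. Those of chromosomes 4, 6 and 10 were not. The chromosome 22 median lay between -0.70 and -0.49 and that of X between -0.32 and -0.07. The long run on chromosome 17 lay between -0.78 and -0.51, on 4 between -0.60 and -0.35 and on X between -0.62 and -0.29. The upward long runs lay between 0.61 and 0.96 on 8 and between 0.59 and 1.03 on 7. Those on 5 and 1 lay between 0.50 and 0.93 and between 0.39 and 0.86. Median scaling itself moved the median of all probes to 0.13.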

Other observations

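Of the genes tested, 3 had 1 array apart from the others of a line by more than 2 log2 units, with the other arrays within 0.5 of each other. DUSP1, the phosphatase made quickly after stress, was at 4.25, 7.91 and 4.21 in DoxR, against 7.52, 7.71 and 7.90 in WT, so that only DoxR replicate 2 carried a signal like that of WT. VCF1 was at 4.43, 9.16 and 9.05 in DoxR, against 8.91, 4.29 and 8.88 in WT, with 1 array of each line near the detection floor. COXFA4L2 was at 8.25 on WT replicate 1 and at 5.58 and 5.98 on the other WT arrays.

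Of 3330 genes with more than 1 tested probe, 19 had 1 probe called higher and another called lower, and these genes were picked for that. FKBP14, a collagen-folding isomerase, had probes at log2 differences of -1.40 and 0.62 (DoxR minus WT), CYFIP2, an actin regulator, at -1.61 and 0.92, and MLLT10, a chromatin reader, at -1.41, 0.67 and 0.87. EID2B had probes at -0.64 and 1.36. Of the called genes with more than 1 tested probe, 680 of 1161 (58.6%) had a further probe called in the same direction. Which transcripts the probes match was not tested.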
